A study of Saccharomyces cerevisiae with 14 samples.

Results

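The heat response of the standard laboratory strain S288C was compared with that of the heat-sensitive strain NFRI 3155, gene by gene. The quantity compared is the change from 30°C to 39°C in S288C minus the same change in NFRI 3155, and it used 10 of the 14 arrays of the series, with 3 arrays per temperature for S288C and 2 per temperature for NFRI 3155. Both strains are *Saccharomyces cerevisiae*, no engineered allele is named for either, and the cells of all 4 groups grew exponentially in rich glucose medium (YPD). The 30°C groups had no heat treatment, and the 39°C groups were kept for 30 min in a water bath at 39°C. S288C is labelled as the control strain and NFRI 3155 as heat sensitive. S288C is a single laboratory lineage, and the ploidy and mating type of NFRI 3155 are not given in the sources used here. The methods give independently grown cells as the replicates and describe duplicates, while the labels hold 3 S288C samples per temperature, all of which were used. Polyadenylated RNA was hybridized to Affymetrix Yeast Genome 2.0 arrays, and 5443 of 5449 named genes were tested. The other 4 arrays are those of the thermotolerant strain NFRI 3236 at both temperatures, which entered the fit for the estimate of the spread and are given side by side.

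In yeast, a shift to higher temperature activates the heat shock factor Hsf1, which drives chaperone genes, and the paired factors Msn2 and Msn4, which drive a general stress program of protective proteins, carbohydrate stores and redox enzymes. At the same time the genes that build ribosomes are repressed, and with time the pattern returns towards that of growing cells. A difference in response between strains can therefore come from a gene that moves in only 1 of the strains, moves in opposite directions, or moves the same way by different amounts, and these cases are kept apart here.

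Levels are given as relative signal, the deposited signal of a probe set divided by the 75th percentile of all probe sets on the same array, so that 1 marks a probe set as bright as that percentile. Folds are ratios of the geometric means of the relative signals of 2 groups, and a fold below 1 is a fall. Differences were tested with limma in 1 model of all genes and called at a Benjamini-Hochberg adjusted p under 0.05, and "rose" and "fell" are used only of calls. The arrays also carry probe sets for *Schizosaccharomyces pombe*, and a signal is called above background when it is greater than the 95th percentile of these on its own array. By this measure 5014 of the tested genes were above background on all 10 arrays. The probes follow the S288C sequence, so a strain difference in level cannot be told apart from a difference in probe match. The change within a strain compares the same probes on the same genome. A difference in probe match can still alter the size of that change, and so the difference of responses, and this was not tested.

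The arrays differed in brightness and in their controls. The 75th percentile lay between 95.7 and 135 on the S288C arrays at 30°C, was 131, 134 and 269 on those at 39°C, and lay between 233 and 282 on the NFRI 3155 arrays. The 3 S288C arrays at 30°C stood apart, because 0, 0 and 1 of the 12 probe sets for spiked poly-A controls exceeded background there, against 8 to 12 on the other arrays, and their 3' to 5' ratio of *ACT1* was 1.84 to 2.05 against 1.16 to 1.58. The same ratio of *SPT15* was 2.71 to 3.44 on these 3 arrays, 2.25 to 2.81 on the S288C arrays at 39°C and 4.01 to 4.97 on the NFRI 3155 arrays. That of *WBP1* was 3.06 to 3.62, within the range of 1.41 to 3.83 on the other arrays of both strains. Replicates of a group correlated at r = 0.960 to 0.989 across genes. All S288C arrays at 30°C share the weak poly-A controls and the higher *ACT1* ratio, so no fit without these arrays can give the S288C response. The difference between strains at 39°C does not use these arrays and is given beside the results. The part of the control differences in the results was not tested.

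Of 5443 genes, 899 were called for the difference of responses. The response was higher in S288C for 483 genes (8.87% of those tested) and lower for 416 (7.64%). At an unadjusted p under 0.05 there were 1742 genes. The absolute difference of the called genes had a median of 1.41 on the log2 scale and ranged from 0.78 to 5.17, against a median standard error of 0.35 over all genes. S288C had 1370 genes that rose (25.2%) and 1535 that fell (28.2%), against 987 (18.1%) and 1312 (24.1%) for NFRI 3155. NFRI 3236 had 854 genes that rose (15.7%) and 1277 that fell (23.5%). Of the 899 genes, 335 (37.3%) moved only in S288C, 218 (24.2%) moved only in NFRI 3155, 260 (28.9%) moved in the same direction in both strains by different amounts, 71 (7.90%) moved in opposite directions, and 15 (1.67%) were called in neither strain alone. "Only" here means that the response of the other strain was not called. S288C had more arrays per temperature, and the median standard error of its log2 change was 0.22, against 0.27 for NFRI 3155. A change of the same size was therefore called more readily in S288C. The counts of rises and falls of each strain, here and in the gene lists below, do not compare the strains at equal precision. The part of this in the counts was not tested. Without the 75th percentile shift the calls were 140 higher and 32 lower, with a median over all genes of 0.44 in place of 0.06. The split within S288C was then 1839 that rose and 449 that fell, and within NFRI 3155 591 and 503. The counts were also lower without single arrays, with 228 higher and 200 lower without NFRI 3155 30°C replicate 1, 203 and 181 without NFRI 3155 30°C replicate 2, and 263 lower without S288C 30°C replicate 1. Each of the 12 classes described next shrank by more than 1.5 times without the shift and without NFRI 3155 30°C replicate 1, and 11 of them did so without NFRI 3155 30°C replicate 2. Each of the other 8 arrays, left out alone, did this to between 1 and 6 classes. The genes described in each class are those with the largest differences among the genes above background on all 10 arrays, and dimmer genes, some with larger fitted differences, are given later.

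**Figure D1:**
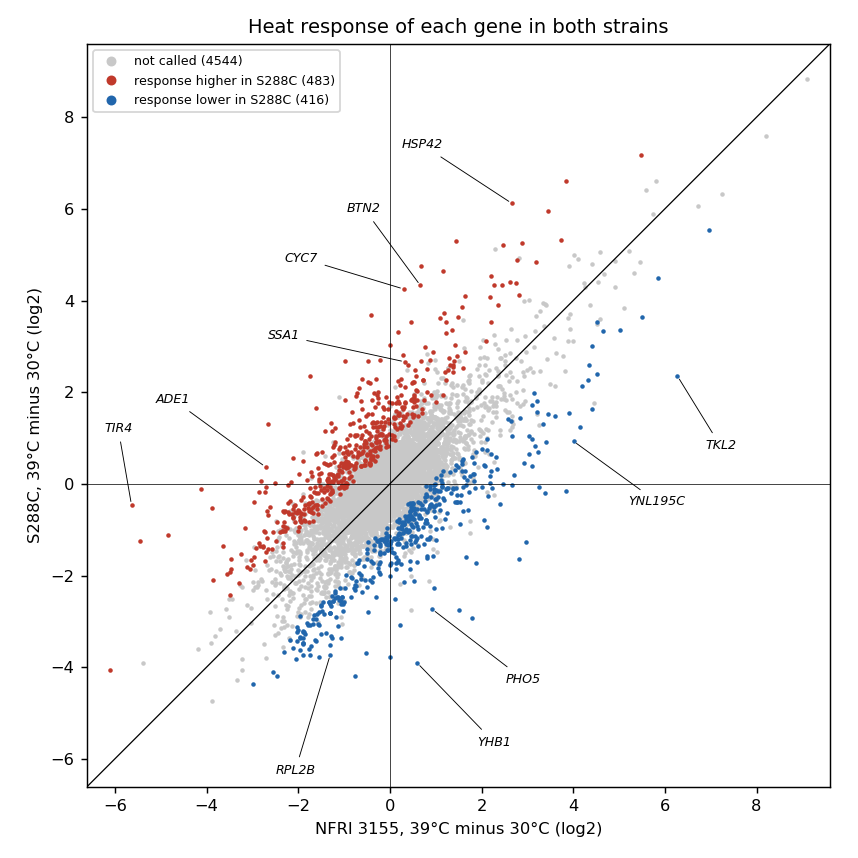
The log2 change from 30°C to 39°C of each of the 5443 genes in NFRI 3155 (horizontal axis) and S288C (vertical axis), from the group means. Red points are the 483 genes with a higher response in S288C, blue points the 416 with a lower one, grey points the other genes, and the diagonal line marks equal responses. Called genes lie on both sides of the diagonal, and those close to 1 axis had a small change in the strain of the other.

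**Figure D2:**
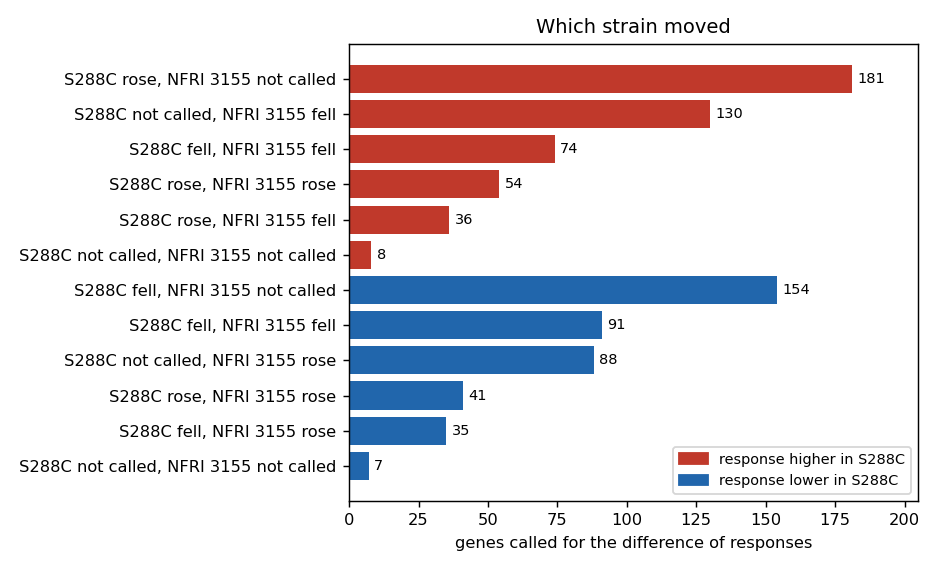
Number of genes called for the difference of responses (horizontal axis, from 0) by the state of each strain, where "not called" means that the strain's own change did not pass the test. The largest groups are the 181 genes called as rising in S288C and not called in NFRI 3155, the 154 called as falling in S288C and not called in NFRI 3155, and the 130 called as falling in NFRI 3155 and not called in S288C.

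Genes that rose in S288C and were not called in NFRI 3155 were the largest group, with 181 genes and median folds of 2.54 in S288C and 0.897 in NFRI 3155. *CYC7*, the isoform of cytochrome c used at low oxygen, had the largest difference among those above background on all 10 arrays. Its relative signal in S288C was 0.386, 0.461 and 0.415 at 30°C and 7.48, 8.46 and 8.04 at 39°C, and in NFRI 3155 it was 2.41 and 2.81 at 30°C and 5.04 and 2.05 at 39°C. The S288C arrays separated by 19.0-fold, while the NFRI 3155 arrays at 39°C lay on both sides of those at 30°C, and at 30°C every NFRI 3155 array was above every S288C array. The difference was 3.94 ± 0.43 (log2, standard error, adjusted p = 0.000196). *BTN2*, which gathers misfolded proteins into inclusions, had relative signals of 0.428, 0.387 and 0.429 at 30°C and 7.64, 8.50 and 8.88 at 39°C in S288C, and 1.51 and 1.34 at 30°C and 3.35 and 1.52 at 39°C in NFRI 3155. It rose 20.1-fold in S288C against a fold of 1.59 in NFRI 3155 that was not called, a difference of 3.66 ± 0.41 (adjusted p = 0.000198). *MNN4*, a regulator of mannosylphosphate transfer to cell wall glycans, rose 6.40-fold in S288C with a fold of 0.721 in NFRI 3155. *YPS3*, a cell surface aspartic protease, rose 3.98-fold with a fold of 0.606. In NFRI 3236, 41 of the 181 genes rose, 7 fell and 133 were not called.

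A further 54 genes rose in both strains and more in S288C, with median folds of 9.24 and 2.62. *HSP42*, a small heat shock protein that holds misfolded proteins, had relative signals of 0.168, 0.118 and 0.250 at 30°C and 14.7, 12.03 and 9.51 at 39°C in S288C. In NFRI 3155 they were 0.597 and 1.35 at 30°C and 5.52 and 5.84 at 39°C. The rise was 69.6-fold in S288C and 6.33-fold in NFRI 3155 (difference 3.46 ± 0.50, adjusted p = 0.001). The groups did not overlap in either strain, and the strains were further apart at 30°C, where S288C was at 0.190-fold of NFRI 3155, than at 39°C, where it was at 2.09-fold. *RTC3*, a stress-induced protein, went from 0.261, 0.329 and 0.241 to 33.8, 30.3 and 18.9 in S288C and from 0.915 and 1.44 to 18.2 and 15.1 in NFRI 3155. Its rise was 97.6-fold against 14.4-fold, while the levels at 39°C differed by a fold of 1.62 that was not called (adjusted p = 0.0542). *SRL3* rose 37.1-fold and 5.54-fold, and *ULI1* rose 13.2-fold and 2.27-fold. In NFRI 3236, 50 of the 54 genes rose and none fell, with a median fold of 3.66.

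Genes that fell in NFRI 3155 and were not called in S288C numbered 130, with median folds of 0.391 and 1.01. *TIR4*, a cell wall mannoprotein of anaerobic cells, had the largest difference of all called genes. Its relative signal in NFRI 3155 was 7.12 and 6.48 at 30°C and 0.102 and 0.183 at 39°C, and in S288C it was 0.380, 0.274 and 0.303 at 30°C and 0.301, 0.168 and 0.238 at 39°C. Only the NFRI 3155 arrays at 30°C were high, and the fold was 0.0201 in NFRI 3155 against 0.726 in S288C (difference 5.17 ± 0.60, adjusted p = 0.000232). *MAE1*, the mitochondrial malic enzyme, had 15.3 and 13.8 at 30°C and 0.691 and 1.39 at 39°C in NFRI 3155, against 2.78, 2.78 and 3.14 and then 2.53, 1.95 and 1.66 in S288C. This was a fall to 0.0674-fold in NFRI 3155, while the fold of 0.697 in S288C was not called although its arrays did not overlap (difference 3.37 ± 0.38, adjusted p = 0.000198). *ADE1*, an enzyme of purine synthesis, fell to 0.153-fold in NFRI 3155 with a fold of 1.29 in S288C. *COS111* fell to 0.143-fold with a fold of 1.04. In NFRI 3236, 71 of these 130 genes fell, 1 rose and 58 were not called, and *TIR4* and *ADE1* fell there to 0.0199-fold and 0.133-fold.

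In 74 genes with a higher response in S288C both strains fell, NFRI 3155 further, with median folds of 0.200 in NFRI 3155 and 0.489 in S288C. *YDL241W*, a gene of unknown function, had relative signals of 2.37, 2.28 and 2.35 at 30°C and 1.07, 1.05 and 1.12 at 39°C in S288C. In NFRI 3155 they were 2.29 and 1.61 at 30°C and 0.0644 and 0.0696 at 39°C. The strains started at overlapping levels, and at 39°C S288C was 16.1-fold above NFRI 3155 (difference of responses 3.73 ± 0.31, adjusted p = 3.62e-05). *YVH1*, a phosphatase that acts in the maturation of the large ribosomal subunit, went from 1.303, 1.15 and 1.18 to 0.545, 0.461 and 0.431 in S288C and from 1.91 and 1.24 to 0.123 and 0.122 in NFRI 3155. The falls were to 0.393-fold and 0.0801-fold, and at 39°C S288C was 3.88-fold higher (difference of responses 2.30 ± 0.34, adjusted p = 0.00115). *NRG2*, a transcriptional repressor, fell to 0.659-fold in S288C and 0.156-fold in NFRI 3155. *TOS6*, a cell wall protein, fell to 0.0600-fold and 0.0145-fold, and its difference was not called when any of the 10 arrays was left out. NFRI 3236 lowered 66 of the 74 genes and raised none.

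Opposite movements, with a rise in S288C and a fall in NFRI 3155, were called for 36 genes. *FIT2*, a cell wall mannoprotein that retains iron carriers, had relative signals of 1.00, 0.610 and 0.960 at 30°C and 3.47, 5.22 and 4.34 at 39°C in S288C. NFRI 3155 had 2.69 and 1.23 at 30°C and 0.897 and 0.329 at 39°C. The S288C rise was 5.12-fold and the NFRI 3155 fold was 0.299, with no overlap in either strain (difference 4.10 ± 0.86, adjusted p = 0.00775). *HUG1*, an inhibitor of ribonucleotide reductase known for its induction by DNA damage, started at like levels in both strains, with 0.162, 0.146 and 0.208 in S288C and 0.169 and 0.157 in NFRI 3155. At 39°C it was at 0.492, 0.621 and 0.497 in S288C and 0.0558 and 0.0513 in NFRI 3155, so that the strains, at a fold of 1.05 at 30°C, stood 9.97-fold apart at 39°C. Its difference of responses was 3.25 ± 0.32 (adjusted p = 0.000134). *PYC1*, a pyruvate carboxylase, rose 4.85-fold in S288C and fell to 0.653-fold in NFRI 3155, and *MFA2*, a precursor of the mating pheromone a-factor, rose 3.57-fold and fell to 0.505-fold. Of the 36 genes, NFRI 3236 raised 1, lowered 14 and left 21 without a call.

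The 154 genes that fell in S288C and were not called in NFRI 3155 made the second largest group, with median folds of 0.423 and 1.14. *YHB1*, the flavohemoglobin that detoxifies nitric oxide, had relative signals of 21.8, 20.4 and 19.6 at 30°C and 1.45, 1.39 and 1.28 at 39°C in S288C. In NFRI 3155 they were 4.48 and 5.19 at 30°C and 6.94 and 7.69 at 39°C. S288C fell to 0.0666-fold, and the order of the strains turned, from S288C at 4.27-fold of NFRI 3155 at 30°C to 0.187-fold at 39°C (difference of responses -4.51 ± 0.30, adjusted p = 7.43e-06). *RPL41A*, a ribosomal protein whose probe set matches more than 1 transcript, went from 7.17, 10.5 and 8.15 to 0.656, 0.404 and 0.374 in S288C and from 0.535 and 0.247 to 0.375 and 0.123 in NFRI 3155. Its NFRI 3155 arrays overlapped, and its difference of -3.44 ± 1.00 (adjusted p = 0.0337) was not called in 7 of the 10 fits that each left out 1 array. *RPL22B*, another ribosomal protein, fell to 0.175-fold in S288C with a fold of 1.09 in NFRI 3155, and *YLR264C-A*, a small gene of unknown function, fell to 0.230-fold with a fold of 1.44. In NFRI 3236, 47 of the 154 genes fell, 3 rose and 104 were not called.

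Both strains fell in 91 genes with a lower response in S288C, to median folds of 0.138 in S288C and 0.362 in NFRI 3155. The 4 genes with the largest differences of those above background on all 10 arrays all encode cytosolic ribosomal proteins. *RPL2B* had relative signals of 69.5, 55.1 and 46.2 at 30°C and 4.32, 4.54 and 3.87 at 39°C in S288C, and 39.7 and 35.4 at 30°C and 14.4 and 16.1 at 39°C in NFRI 3155. The arrays of both strains separated fully, with falls to 0.0755-fold and 0.406-fold, and S288C ended at 0.278-fold of NFRI 3155 (difference of responses -2.43 ± 0.37, adjusted p = 0.00136). *RPL4B* went from 43.9, 37.2 and 35.7 to 2.22, 3.32 and 3.12 in S288C and from 6.36 and 3.91 to 1.73 and 1.67 in NFRI 3155. Its falls were to 0.0734-fold and 0.342-fold, and S288C was 7.77-fold above NFRI 3155 at 30°C while at 39°C the fold of 1.67 was not called (difference of responses -2.22 ± 0.47, adjusted p = 0.0078). *RPS9B* and *RPL26B* fell to 0.0881-fold and 0.0966-fold in S288C and to 0.407-fold and 0.417-fold in NFRI 3155. NFRI 3236 lowered 86 of the 91 genes, with a median fold of 0.315.

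A fall in S288C and a rise in NFRI 3155 were called for 35 genes. *PHO5*, the secreted acid phosphatase that is made when phosphate is short, had relative signals of 19.0, 15.2 and 16.7 at 30°C and 2.73, 2.40 and 2.48 at 39°C in S288C. In NFRI 3155 they were 0.260 and 0.237 at 30°C and 0.385 and 0.576 at 39°C. S288C was 68.0-fold above NFRI 3155 at 30°C and 5.38-fold above it at 39°C, with folds of 0.150 in S288C and 1.90 in NFRI 3155 (difference -3.66 ± 0.31, adjusted p = 3.62e-05). *APT2*, a paralog of the adenine phosphoribosyltransferase *APT1*, followed the same course, from 7.11, 5.22 and 6.21 to 2.39, 1.43 and 1.88 in S288C and from 0.180 and 0.189 to 0.579 and 0.796 in NFRI 3155. Its folds were 0.303 and 3.68 (difference -3.60 ± 0.38, adjusted p = 0.000168), and S288C remained 2.74-fold higher at 39°C. *QDR2*, a plasma membrane transporter, had folds of 0.207 and 1.95. *MET17*, which incorporates sulfide into homocysteine, had folds of 0.578 and 4.15, and S288C ended at 0.240-fold of NFRI 3155. In NFRI 3236, 4 of the 35 genes rose, 9 fell and 22 were not called.

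In 88 genes NFRI 3155 rose and S288C was not called, with median folds of 2.67 and 0.942. *ATG41*, which acts in autophagy, had relative signals of 0.193 and 0.317 at 30°C and 0.999 and 1.72 at 39°C in NFRI 3155, and 2.74, 2.61 and 3.49 at 30°C and 2.57, 1.83 and 2.14 at 39°C in S288C. The NFRI 3155 arrays rose 5.29-fold from a level below that of S288C, and the strains differed by a fold of 11.8 at 30°C and one of 1.65 at 39°C that was not called (difference of responses -2.84 ± 0.47, adjusted p = 0.00249). *YER138W-A*, whose probe set matches more than 1 transcript, had 0.535 and 0.514 at 30°C and 6.22 and 3.29 at 39°C in NFRI 3155, against 11.7, 18.0 and 8.62 and then 23.9, 17.6 and 9.59 in S288C, where the temperatures overlapped. It rose 8.63-fold in NFRI 3155 (difference -2.73 ± 0.57, adjusted p = 0.0075). *MET3*, the ATP sulfurylase that begins sulfate assimilation, rose 6.58-fold in NFRI 3155 with a fold of 1.15 in S288C. *YJL077W-B*, of unknown function, rose 5.54-fold with a fold of 1.00. NFRI 3236 raised 36 of the 88 genes and lowered 5.

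Both strains rose, NFRI 3155 more, in 41 genes with median folds of 2.71 in S288C and 9.24 in NFRI 3155. *YNL195C*, a gene of unknown function, had relative signals of 0.149 and 0.197 at 30°C and 2.30 and 3.30 at 39°C in NFRI 3155, and 0.303, 0.306 and 0.192 at 30°C and 0.499, 0.561 and 0.440 at 39°C in S288C. NFRI 3155 rose 16.1-fold against 1.91-fold in S288C, from levels at 30°C that overlapped (difference -3.08 ± 0.36, adjusted p = 0.00025). *YGR201C* went from 1.05 and 1.17 to 9.18 and 11.98 in NFRI 3155 and from 1.24, 0.999 and 1.13 to 2.12, 1.604 and 1.72 in S288C. It rose 9.44-fold and 1.62-fold from like levels at 30°C, and S288C was at 0.172-fold of NFRI 3155 at 39°C (difference of responses -2.55 ± 0.28, adjusted p = 0.00019). *CBP4*, an assembly factor of the cytochrome bc1 complex, had rises of 8.24-fold in NFRI 3155 against 1.57-fold in S288C. *RDL1*, a mitochondrial sulfurtransferase, rose 14.9-fold and 2.91-fold.

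In 15 genes the difference was called while neither strain's change was. Of the 8 with a higher response in S288C, *PEX21*, a peroxisomal import receptor subunit, had relative signals of 0.208, 0.162 and 0.251 at 30°C and 0.460, 0.214 and 0.328 at 39°C in S288C, and 0.191 and 0.187 and then 0.137 and 0.0735 in NFRI 3155. *DDC1*, a subunit of the DNA damage checkpoint clamp, had 0.0950, 0.0564 and 0.0930 and then 0.0961, 0.198 and 0.125 in S288C, and 0.0627 and 0.0788 and then 0.0326 and 0.0521 in NFRI 3155. Small shifts of opposite sign add up in these genes, and the S288C arrays of *PEX21* overlapped between temperatures. Of the 7 genes with a lower response in S288C, *IBA57*, a maturation factor of mitochondrial iron-sulfur proteins, had 0.414, 0.370 and 0.387 and then 0.219, 0.266 and 0.329 in S288C, and 0.377 and 0.323 and then 0.552 and 0.613 in NFRI 3155. *NTE1*, a phospholipase of the endoplasmic reticulum, had 2.17, 1.83 and 1.85 and then 1.74, 1.17 and 1.43 in S288C, and 2.28 and 2.16 and then 2.82 and 3.54 in NFRI 3155. The calls of *PEX21*, *DDC1*, *IBA57* and *NTE1* were lost in 7 or 8 of the 10 fits that left out 1 array.

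**Figure D3:**
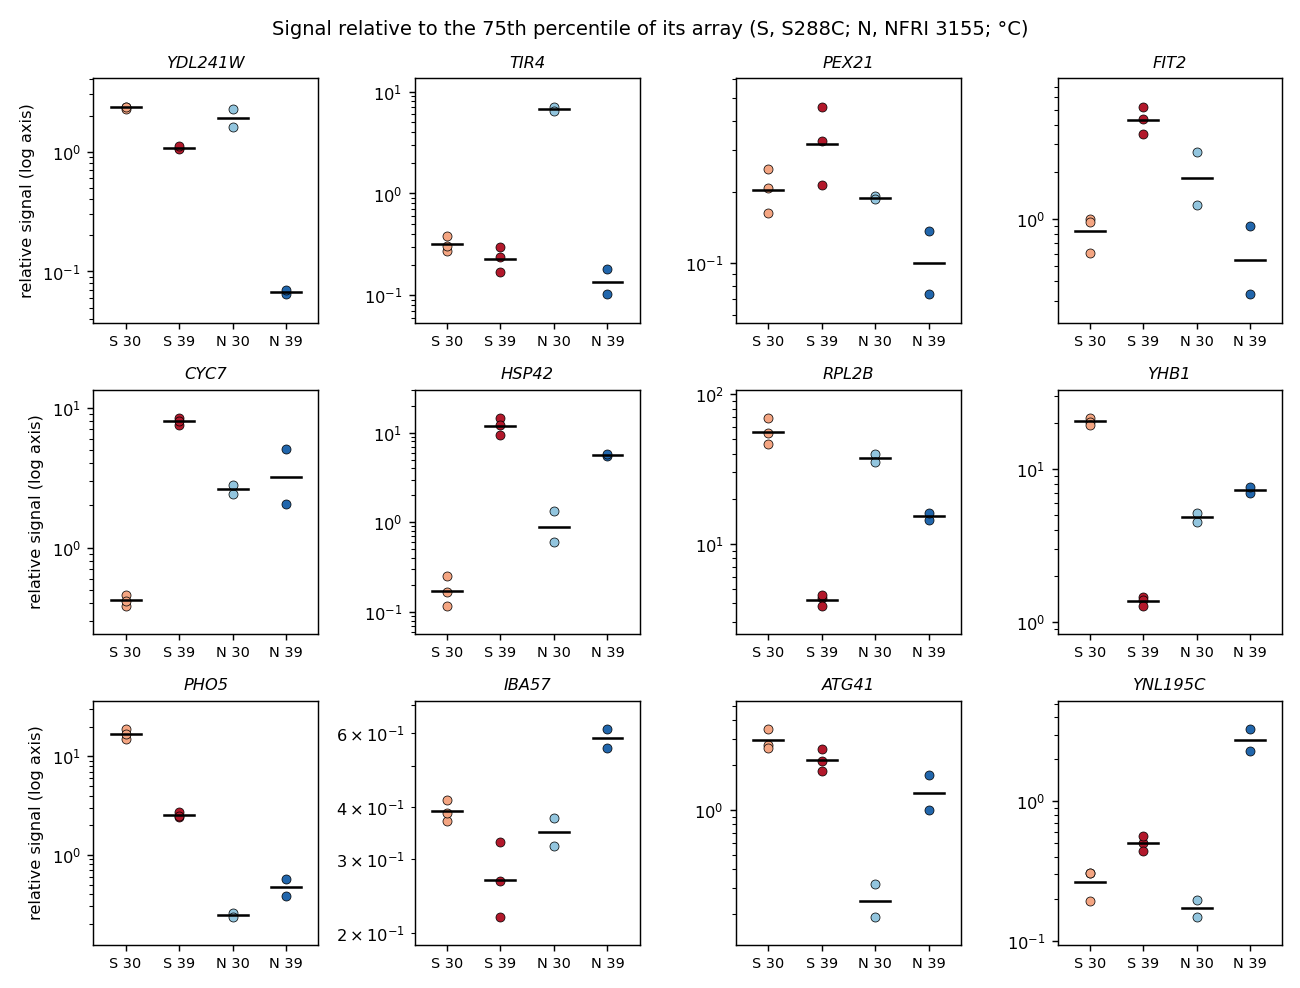
Relative signal (log axis, the range differs between panels) on each of the 10 arrays of 1 gene of each of the 12 classes, the one with the largest difference among genes above background on all of these arrays. S 30 and S 39 are S288C at 30°C and 39°C with 3 arrays each, N 30 and N 39 are NFRI 3155 with 2 arrays each, points are arrays and bars are geometric means. *TIR4* is high on the 2 NFRI 3155 arrays at 30°C (7.12 and 6.48) and low on the other 8.

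The called genes differed in whether the strains were apart before or after the heat treatment. At 39°C, 1256 of all tested genes were higher (23.1%) and 1175 lower (21.6%) in S288C than in NFRI 3155, and at 30°C 759 were higher (13.9%) and 886 lower (16.3%). Without the 75th percentile shift these counts were 217 and 1782 at 39°C and 118 and 3159 at 30°C. Of the 899 genes, 475 differed between strains at 39°C and not at 30°C, 193 at 30°C and not at 39°C, 199 at both temperatures and 32 at neither. Of the 483 genes with a higher response in S288C, 330 (68.3%) were higher in S288C at 39°C, a comparison that uses none of the S288C arrays at 30°C. Of the 416 genes with a lower response, 292 (70.2%) were lower in S288C at 39°C. In 52 genes with a higher response the order of the strains turned, from lower to higher in S288C, and in 38 genes with a lower response it turned the other way. The difference of responses is the strain difference at 39°C minus that at 30°C, so these counts describe the calls and test nothing further. *YDL241W*, *HUG1*, *MET3* and *YGR201C* are examples in which only the 39°C levels differed. *TIR4*, *COS111* and *PYC1*, and with a lower response *ATG41*, are examples in which only the 30°C levels did. For *COS111* and *PYC1*, S288C was at 0.0988-fold and 0.115-fold of NFRI 3155 at 30°C, against folds of 0.722 and 0.853 at 39°C.

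**Figure D4:**
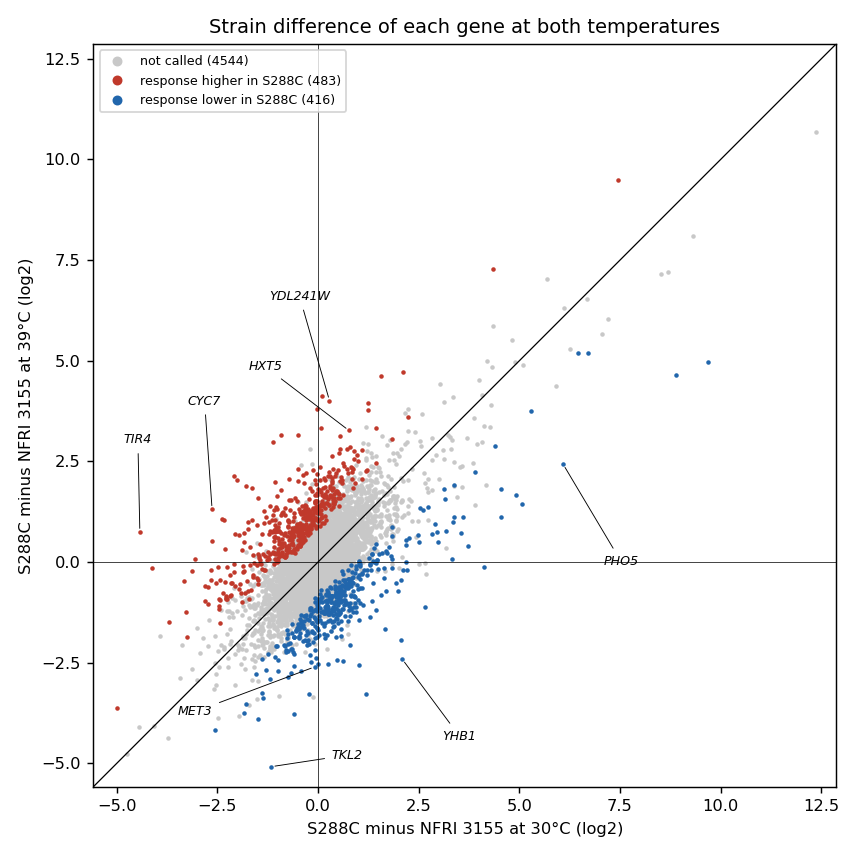
The log2 level of each gene in S288C minus that in NFRI 3155 at 30°C (horizontal axis) and at 39°C (vertical axis), from the group means of the 5443 genes. Colours mark genes called for the difference of responses as in the plot of both heat responses, and the diagonal marks an equal strain difference at both temperatures. Genes straight above or below 0 on the horizontal axis, such as *YDL241W*, had like levels in both strains at 30°C and different ones at 39°C.

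Protein folding genes were among the groups with a stronger rise in S288C. Of 28 chaperones and cochaperones known to depend on Hsf1, 24 rose in S288C and 12 in NFRI 3155, and the response of 11 was higher in S288C and that of 1 lower, against 8.87% and 7.64% of all genes. The median difference was 0.91 on the log2 scale, against 0.06 over all genes. Of the 11, 8 rose in S288C and were not called in NFRI 3155. *SSA1*, a cytosolic Hsp70, rose 6.33-fold in S288C with a fold of 1.26 in NFRI 3155 (difference 2.33 ± 0.42, adjusted p = 0.00352). At 30°C its level in S288C was 0.280-fold of that in NFRI 3155, and at 39°C the fold of 1.41 was not called. *SIS1*, an Hsp40 cochaperone, rose 4.69-fold against a fold of 1.42, and *YDJ1*, another Hsp40, 2.47-fold against 1.06. *SSE1* and *FES1*, exchange factors of Hsp70, rose 2.84-fold and 2.86-fold in S288C with folds of 1.14 and 1.302. *HSP78*, the mitochondrial disaggregase, rose in both strains, 28.6-fold and 9.15-fold, and so did its partner *MDJ1* with 5.63-fold and 2.43-fold. The opposite case was *HSP30*, a plasma membrane stress protein, with rises of 46.8-fold and 124-fold (difference -1.41 ± 0.37, adjusted p = 0.023), whose call was lost without either NFRI 3155 30°C array or without NFRI 3155 39°C replicate 2. At 39°C, 14 of the 28 genes were higher and 1 lower in S288C than in NFRI 3155. In the thermotolerant NFRI 3236, 15 of the 28 rose and 1 fell. The median fold was 1.77 there, near the 1.73 of NFRI 3155 and below the 4.94 of S288C. The count of 11 became 4 without the 75th percentile shift, 6 and 5 without NFRI 3155 30°C replicates 1 and 2, and 19 without S288C 39°C replicate 3.

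The general stress genes did not move to one side. Of 30 genes of the Msn2/4 program, 29 rose in each strain, with median log2 changes of 3.63 and 3.87. The response of 5 was higher and that of 5 lower in S288C (16.7% each, against 8.87% and 7.64% of all genes). *CTT1*, the cytosolic catalase, rose 17.1-fold in S288C against 3.11-fold in NFRI 3155, and *HXK1*, a hexokinase, 12.2-fold and 2.14-fold. *GRE1*, a hydrophilin, rose 2.80-fold and 12.2-fold, *MOH1* 4.83-fold and 19.97-fold, and *RTN2*, a reticulon, 12.4-fold and 45.4-fold. The call of *GRE1* was lost without NFRI 3155 30°C replicate 1, and that of *RTN2* in 4 of the 10 fits without 1 array. The 5 higher responses became 3 without NFRI 3155 30°C replicate 2, and the 5 lower became 0 without the 75th percentile shift and 3 without any 1 of NFRI 3155 30°C replicate 1, NFRI 3155 39°C replicate 1, S288C 30°C replicates 1 and 2 and S288C 39°C replicate 3. In trehalose metabolism, 3 of 10 genes (30%) had a higher and 1 (10%) a lower response in S288C. *TSL1*, a subunit of the trehalose synthase complex, rose 14.9-fold and 5.14-fold, and *PGM2*, a phosphoglucomutase, 38.1-fold and 7.40-fold, while *NTH2*, a trehalase, rose 3.14-fold in NFRI 3155 with a fold of 1.22 in S288C and a call lost in 6 of the 10 fits without 1 array. Without the 75th percentile shift the trehalose counts were 1 and 0. At 30°C, 7 of the 10 trehalose genes were lower in S288C than in NFRI 3155, and at 39°C 6 were. In 24 genes of ubiquitin and protein quality control, 5 (20.8%) had a higher response in S288C and none a lower one, nor at an unadjusted p under 0.05 in limma. Among them were *UBI4*, the polyubiquitin gene, with 20.9-fold and 6.70-fold, and *ATG8*, the ubiquitin-like protein of autophagy, with 10.3-fold and 2.56-fold. The call of *UBI4* was lost without NFRI 3155 30°C replicate 2 and that of *ATG8* in 4 of the 10 fits. The 5 calls became 1 without the 75th percentile shift, 2 and 0 without NFRI 3155 30°C replicates 1 and 2, 3 without NFRI 3155 39°C replicate 2, and 2 and 3 without S288C 30°C replicates 1 and 2.

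Ribosomal protein genes and the genes that assemble ribosomes differed in opposite directions. Of 127 cytosolic ribosomal protein genes, 125 fell in S288C and 123 in NFRI 3155, and the response of 69 (54.3%) was lower in S288C and of 0 higher (0 also at an unadjusted p under 0.05 in limma), with a median difference of -1.22 on the log2 scale. Over all genes 7.64% had a lower and 8.87% a higher response. The medians of the log2 changes were -2.67 in S288C, -1.52 in NFRI 3155 and -1.67 in NFRI 3236. Of the 69, 67 fell in both strains. *RPL9A* fell to 0.0549-fold and 0.183-fold, *RPS22A* to 0.0754-fold and 0.299-fold, and *RPL3* to 0.164-fold and 0.405-fold. At 39°C, 55 of the 127 genes were lower and 1 higher in S288C than in NFRI 3155, and at 30°C 18 were higher and 0 lower. The probe sets of 25 of the 127 match more than 1 transcript, 11 of them among the 69, so paralogs are not measured apart. The count of 69 was 3 without the 75th percentile shift and 50 with quantile normalization. Without NFRI 3155 30°C replicates 1 and 2 it was 28 and 15, without NFRI 3155 39°C replicate 1 it was 35, without S288C 30°C replicates 1 and 2 it was 33 and 38, and without S288C 39°C replicate 3 it was 45.

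Of 103 ribosome biogenesis genes, which process ribosomal RNA and assemble the subunits, 65 fell in S288C and 87 in NFRI 3155, and the response of 24 (23.3%) was higher in S288C and of 0 lower (1 at an unadjusted p under 0.05 in limma), with a median difference of 0.68. Of the 24, 14 fell in both strains and 10 in NFRI 3155 alone. *ECM16*, a helicase of the small subunit precursor, fell to 0.177-fold in NFRI 3155 with a fold of 1.01 in S288C (difference 2.51 ± 0.31, adjusted p = 0.000375), and *DBP10*, a helicase of the large subunit, to 0.223-fold with 0.773. *BRX1* and *KRE33* fell to 0.122-fold and 0.127-fold in NFRI 3155 and to 0.317-fold and 0.330-fold in S288C. *EBP2* fell to 0.112-fold in NFRI 3155 with a fold of 0.514 in S288C that was not called, and its difference was lost in 9 of the 10 fits without 1 array. At 39°C, 77 of the 103 genes were higher and 2 lower in S288C than in NFRI 3155. In the same direction, 4 of 25 subunits of RNA polymerases I and III (16%) had a higher response in S288C. So did 6 of 36 translation factors (16.7%). Neither group had a lower one, against 8.87% higher and 7.64% lower over all genes. *RPA14*, a subunit of RNA polymerase I, fell to 0.428-fold in NFRI 3155 with a fold of 1.12 in S288C, a call lost without NFRI 3155 30°C replicate 1. *TIF4632*, an eIF4G isoform that holds the cap-binding complex together, rose 2.52-fold in S288C and fell to 0.413-fold in NFRI 3155, and its paralog *TIF4631* fell to 0.440-fold and 0.155-fold, a call lost in 7 of the 10 fits. The count of 24 was 4 without the 75th percentile shift, 7 and 11 without NFRI 3155 30°C replicates 1 and 2, 44 and 13 without NFRI 3155 39°C replicates 1 and 2, and 11 and 13 without S288C 30°C replicates 1 and 3. The 4 polymerase subunits became 0 if no shift was made, 8 when 16 was added to each signal, 2 with a median shift, 0 and 1 without NFRI 3155 30°C replicates 1 and 2, 12 without NFRI 3155 39°C replicate 1, 1 and 2 without S288C 30°C replicates 1 and 2, and 2 without S288C 39°C replicate 2. The 6 translation factors became 1 without the shift, 1 without either NFRI 3155 30°C array or S288C 30°C replicate 1, and 2 without S288C 30°C replicate 2 or 3 or S288C 39°C replicate 2.

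**Figure D5:**
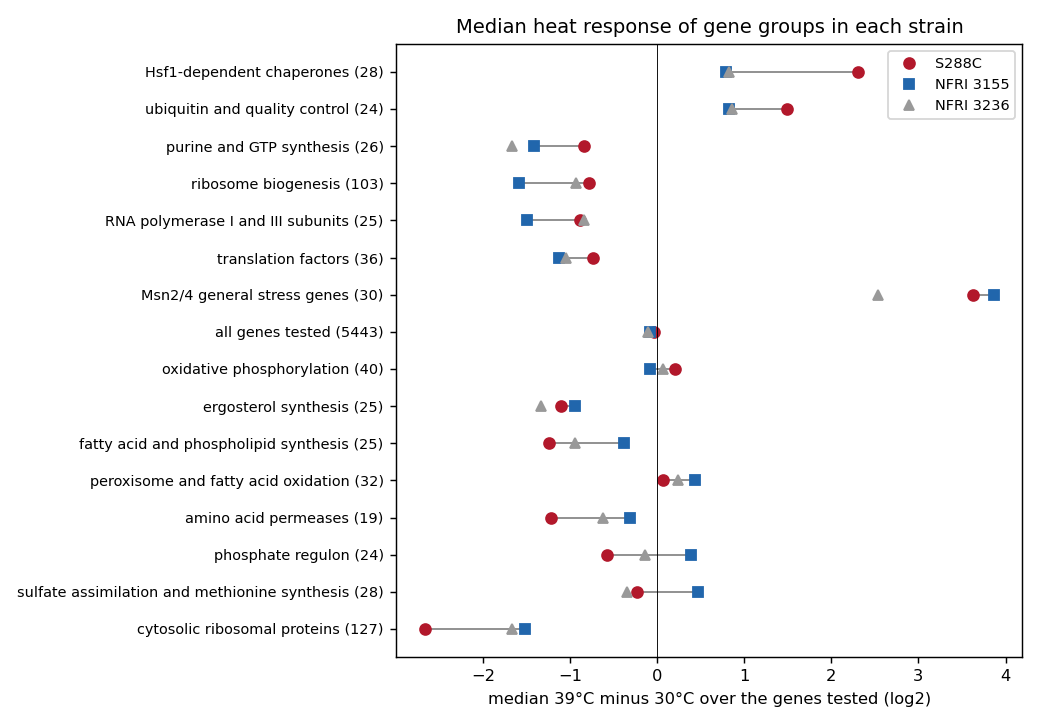
Median log2 change from 30°C to 39°C over the tested genes of each group (number in brackets) in S288C (circles), NFRI 3155 (squares) and NFRI 3236 (triangles), with a line between the first pair. Cytosolic ribosomal proteins have medians of -2.67 in S288C and -1.52 in NFRI 3155, while ribosome biogenesis has -0.78 and -1.59, so the order of these strains is opposite in both groups.

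Nearly all purine synthesis genes fell in NFRI 3155, and fewer of them did in S288C. Of 26 genes of purine and GTP synthesis, 24 were called as falling in NFRI 3155, while in S288C 14 fell and 5 rose. The 24 include *IMD2*, whose NFRI 3155 signals were below background, so that its fall there is not measured. The response of 12 (46.2%) was higher in S288C and of 1 lower, against 8.87% and 7.64% of all genes, with a median difference of 0.84. Along the pathway, *ADE4*, which makes its committed step, had folds of 1.56 in S288C and 0.326 in NFRI 3155, *ADE2* 2.23 and 0.377, *ADE1* 1.29 and 0.153, and *ADE13* 0.880 and 0.150. *MTD1* and *SHM2*, which supply one-carbon units, had 2.98 and 0.561, and 1.81 and 0.428. At 30°C, 12 of the 26 genes were lower and 3 higher in S288C than in NFRI 3155, and at 39°C 11 were higher and 6 lower. In NFRI 3236 the median log2 change was -1.66, against -0.84 in S288C and -1.41 in NFRI 3155. The exception was *IMD2*, an IMP dehydrogenase of GTP synthesis, which fell to 0.142-fold in S288C and was above background on no NFRI 3155 array, where no fold is given. Its call as lower in S288C therefore sets the fall of S288C against signals below background, and no size of the difference is given. Its probe set matches more than 1 transcript, and S288C was at least 43.5-fold above NFRI 3155 at 30°C and at least 7.84-fold at 39°C. The count of 12 was 6 without the 75th percentile shift and 7 without NFRI 3155 30°C replicate 2, and with quantile normalization 9 were higher and 4 lower.

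Genes of sulfate assimilation and methionine synthesis had the opposite tendency. Of 28 genes, 11 rose in NFRI 3155 and 2 fell, while 6 rose and 12 fell in S288C. The response of 13 (46.4%) was lower in S288C and of 1 higher, against 7.64% and 8.87% of all genes, with a median difference of -0.97. Besides *MET3* and *MET17*, *MET14*, the adenylylsulfate kinase, rose 3.33-fold in NFRI 3155 with a fold of 0.883 in S288C, *MET2* 4.03-fold with 0.952, and *MET10*, a sulfite reductase subunit, fell to 0.277-fold in S288C with 1.35 in NFRI 3155. *MMP1* and *SAM3*, transporters of S-methylmethionine and S-adenosylmethionine, fell to 0.144-fold and 0.206-fold in S288C, and *SAM3* also fell in NFRI 3155, to 0.578-fold. *MUP3*, a methionine permease, was the exception and rose 3.55-fold in S288C with a fold of 1.39 in NFRI 3155, a call lost in 7 of the 10 fits without 1 array. At 39°C, 21 of the 28 genes were lower and 0 higher in S288C than in NFRI 3155, and at 30°C 10 were lower and 5 higher. The count of 13 was 1 without the 75th percentile shift and 8 without NFRI 3155 30°C replicate 2.

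Many phosphate regulon genes fell from high levels in S288C, and some rose from low levels in NFRI 3155. Of 24 genes, S288C lowered 15 and raised 3 while NFRI 3155 raised 10 and lowered 2. The response of 7 (29.2%) was lower in S288C and of 1 higher, against 7.64% and 8.87% of all genes, with a median difference of -0.82. At 30°C, 16 of the 24 were higher in S288C than in NFRI 3155, with a median difference of 2.16 on the log2 scale, and at 39°C 14 were, with a median of 0.91. *PHO84*, the high-affinity phosphate transporter, had folds of 0.541 in S288C and 2.88 in NFRI 3155, *PHO81*, the inhibitor of the phosphate-sensing kinase, 0.523 and 1.65, and *VTC3*, a polyphosphate polymerase subunit, 0.678 and 3.27. *PHO3*, a constitutive acid phosphatase, had relative signals of 7.596, 6.39 and 6.01 at 30°C and 0.707, 1.01 and 0.938 at 39°C in S288C. In NFRI 3155 it was above background on 1 of the 4 arrays, at 39°C, and S288C was at least 177-fold higher at 30°C. *PHO89*, a sodium-coupled phosphate transporter, went from 7.43, 5.70 and 6.63 to 3.63, 2.12 and 2.65 in S288C, and in NFRI 3155 from below background to 0.0928 and 0.128, a rise of at least 2.90-fold. *PHO2*, a transcription factor shared with the purine genes, rose 1.82-fold in S288C with a fold of 0.675 in NFRI 3155, a call lost without NFRI 3155 30°C replicate 2. The count of 7 was 4 without the 75th percentile shift.

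More amino acid permeases fell in S288C than in NFRI 3155. Of 19 genes, 14 fell in S288C and 6 in NFRI 3155, and the response of 7 (36.8%) was lower in S288C and of 2 higher, with a median difference of -0.81. *TAT1* and *ALP1* fell to 0.294-fold and 0.277-fold in S288C with folds of 1.00 and 1.10 in NFRI 3155, and *BAP3*, a branched-chain permease, to 0.196-fold with 0.659. *BIO5*, which takes up a biotin precursor, fell to 0.307-fold with 1.51. *LYP1*, the lysine permease, fell to 0.288-fold in NFRI 3155 with 0.734 in S288C, a call lost without NFRI 3155 30°C replicate 2. Without the 75th percentile shift 0 of the 19 were called. In nitrogen catabolite genes, which use poor nitrogen sources, 7 of 27 (25.9%) had a higher and 4 (14.8%) a lower response in S288C. *DAL1* and *DAL4*, allantoinase and allantoin permease, rose 2.48-fold and 3.41-fold in S288C with folds of 0.158 (a fall) and 0.832 in NFRI 3155, and *CAR2*, the ornithine transaminase, rose 1.604-fold and fell to 0.332-fold. *UGA4*, the GABA permease, rose 3.02-fold in NFRI 3155 with 0.664 in S288C, a call lost in 4 of the 10 fits without 1 array. The counts of 7 and 4 were 3 and 0 without the 75th percentile shift. Of 63 amino acid synthesis genes, 8 (12.7%) had a higher and 2 (3.17%) a lower response, shares not far from the 8.87% and 7.64% of all genes, with *SER2* and *BAT2* falling to 0.339-fold and 0.341-fold in NFRI 3155 and folds of 1.28 and 1.04 in S288C. These 8 became 1 without the 75th percentile shift, 14 with 16 added to each signal, 3 and 5 without NFRI 3155 30°C replicates 1 and 2, 4 without NFRI 3155 39°C replicate 1, and 5 and 4 without S288C 30°C replicates 2 and 3.

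In lipid metabolism, more peroxisome and fatty acid oxidation genes rose in NFRI 3155, and more genes of fatty acid and phospholipid synthesis fell in S288C. Of 32 peroxisome and fatty acid oxidation genes, 12 rose in NFRI 3155 and 6 in S288C, and the response of 10 (31.2%) was lower in S288C and of 1 higher, with a median difference of -0.48 that was -0.0912 without the 75th percentile shift, when the median over all genes was 0.44. *PXA1*, a subunit of the peroxisomal fatty acyl transporter, rose 2.91-fold in NFRI 3155 with a fold of 0.762 in S288C, and *CAT2*, the carnitine acetyltransferase, 3.55-fold with 1.05. *POT1*, the thiolase, rose 20.2-fold and 6.07-fold. Of 25 genes of fatty acid and phospholipid synthesis, 16 fell in S288C and 10 in NFRI 3155, and the response of 7 was lower in S288C and of 0 higher (5 at an unadjusted p under 0.05 in limma), with a median difference of -0.39 that was near 0 without the 75th percentile shift. *OLE1*, the only fatty acid desaturase of yeast, fell to 0.0969-fold in S288C with a fold of 0.479 in NFRI 3155 that was not called (difference -2.30 ± 0.56, adjusted p = 0.0159), a call lost without either NFRI 3155 30°C array or NFRI 3155 39°C replicate 2. *CHO2*, a phosphatidylethanolamine methyltransferase, fell to 0.402-fold in S288C and rose 1.67-fold in NFRI 3155, and *FAA3*, an acyl-CoA synthetase, fell to 0.301-fold with 1.01. In ergosterol synthesis, 18 of 25 genes fell in each strain, with median log2 changes of -1.11 in S288C and -0.95 in NFRI 3155. The median difference was -0.05. The response of 6 (24%) was higher in S288C and of 0 lower (2 at an unadjusted p under 0.05 in limma), against 8.87% and 7.64% of all genes. Among the 6 was *CYB5*, an electron donor of the pathway, with folds of 1.36 and 0.380. At both temperatures 15 of the 25 were lower in S288C. The 10 peroxisome calls became 0 without the 75th percentile shift, 4 without either NFRI 3155 30°C array, and 6 without S288C 30°C replicate 1 or S288C 39°C replicate 2 or 3. The 7 synthesis calls became 0 without that shift, 3 and 2 without NFRI 3155 30°C replicates 1 and 2, 3 without NFRI 3155 39°C replicate 2, and 4 without S288C 30°C replicate 1 or 3 or S288C 39°C replicate 2 or 3. The 6 ergosterol calls became 1 without the shift, 3 with quantile normalization, 2 and 1 without NFRI 3155 30°C replicates 1 and 2, and 3 without NFRI 3155 39°C replicate 2 or S288C 30°C replicate 2 or 3.

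In central carbon metabolism single genes differed. Of 40 oxidative phosphorylation genes, 8 (20%) had a higher response in S288C and 1 (2.5%) a lower one, with a median difference of 0.24. The shares over all genes were 8.87% and 7.64%. *QCR6* and *CYC1*, of the bc1 complex and its electron acceptor, rose 1.70-fold and 1.51-fold in S288C and fell to 0.461-fold and 0.417-fold in NFRI 3155, and *STF1*, a regulator of the ATP synthase, rose 20.3-fold and 4.81-fold. *NDE2*, an external NADH dehydrogenase, went the other way, with rises of 3.12-fold and 21.4-fold (difference -2.78 ± 0.29, adjusted p = 0.000166). In the pentose phosphate pathway *TKL2*, the minor transketolase, rose 5.10-fold in S288C and 77.5-fold in NFRI 3155 (difference -3.92 ± 0.47, adjusted p = 0.000267), and *SOL4*, a lactonase, 145-fold and 44.5-fold. Among hexose transporters *HXT5* rose 62.3-fold and 11.0-fold, and *HXT9* 2.08-fold and 6.34-fold. *GPD1*, which makes glycerol phosphate, rose 2.14-fold in S288C with a fold of 0.878 in NFRI 3155, and *GUT1*, the glycerol kinase, fell to 0.438-fold with 1.52. *ACS1*, an acetyl-CoA synthetase, rose 4.56-fold in NFRI 3155 with 1.02 in S288C, and *ALD4*, a mitochondrial aldehyde dehydrogenase, rose 2.54-fold in S288C with 0.931 in NFRI 3155. The 8 oxidative phosphorylation calls became 4 without the 75th percentile shift. Leaving out NFRI 3155 30°C replicate 2 ended the calls of *SOL4*, *HXT9* and *GPD1*, and leaving out NFRI 3155 30°C replicate 1 that of *HXT9*.

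Redox, mating and low-oxygen genes held further large differences. Of 26 oxidative stress genes linked to Yap1, 6 (23.1%) had a lower response in S288C and 1 (3.85%) a higher one, against 7.64% and 8.87% of all genes. The median difference of the 26 was 0.01, so the list as a whole was not shifted. *OYE3*, an NADPH oxidoreductase, was below background on both NFRI 3155 arrays at 30°C and rose there at least 4.57-fold, with a fold of 0.952 in S288C, and *FLR1*, a drug exporter, fell to 0.265-fold in S288C with 0.845 in NFRI 3155. *DAN1*, a mannoprotein of anaerobic cells like *TIR4*, fell at least 18.9-fold in NFRI 3155 to below background on both arrays, against a fall to 0.423-fold in S288C. The list of 26 low oxygen and cell wall mannoprotein genes had 4 higher and 4 lower responses in S288C (15.4% each, against 8.87% and 7.64% of all genes). Its median difference was 0.52, against 0.06 over all genes. At an unadjusted p under 0.05 in limma 11 of its genes were higher and 6 lower. The 4 higher calls were 3 without the 75th percentile shift and 4 to 6 with each array left out in turn. The cell wall mannoprotein *TIR1* fell in both strains, to 0.123-fold (S288C) and 0.287-fold (NFRI 3155), and *PAU24*, whose probe set matches more than 1 transcript, fell to 0.586-fold in S288C with 1.41 in NFRI 3155, both with a lower response in S288C. The 4 lower calls became 0 without the 75th percentile shift, 1 and 0 without NFRI 3155 30°C replicates 1 and 2, 2 and 1 without NFRI 3155 39°C replicates 1 and 2, and 2 without S288C 30°C replicate 1 or 3 or S288C 39°C replicate 2. Of 30 pheromone response and haploid genes, 5 (16.7%) had a lower and 2 (6.67%) a higher response in S288C, against 7.64% and 8.87% of all genes. The median difference of the 30 was 0.14, of the opposite sign to the larger count. *NEJ1*, a haploid-specific factor of DNA end joining, fell to 0.336-fold in S288C with 1.77 in NFRI 3155, and *FIG2*, a mating adhesin, to 0.299-fold with 1.19. *GPA1*, the G protein alpha subunit of the pheromone pathway, rose 2.55-fold in S288C with 0.772 in NFRI 3155, a call lost when replicate 2 of NFRI 3155 at either temperature was left out. The 6 Yap1 calls became 1 without the 75th percentile shift and 3 without NFRI 3155 30°C replicate 1. The 5 pheromone calls became 0 without that shift, 2 without NFRI 3155 30°C replicate 2, and 3 without any 1 of 6 other arrays, which were NFRI 3155 30°C replicate 1, both NFRI 3155 39°C arrays, S288C 30°C replicate 2 and S288C 39°C replicates 1 and 3.

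Some called genes were near background in part of the groups. Of the 899 called genes, 823 (91.5%) exceeded background on every one of the 10 arrays, while 44 had at least 1 of the 4 groups with no array above background, so that the size of their difference is not measured. *SPG4*, a gene of stationary phase, was below background on the 3 S288C arrays at 30°C and at 1.07, 0.958 and 1.08 at 39°C, a rise of at least 21.6-fold, while in NFRI 3155 it went from below background to 0.0730 and 0.0747, at least 1.97-fold and not called. *LEE1* rose at least 5.32-fold in S288C, to 0.314, 0.203 and 0.261, and 0 of 2 NFRI 3155 arrays at 39°C were above background. *SMA1*, a gene of spore membrane assembly, rose at least 5.52-fold in S288C, to 0.295, 0.261 and 0.241, and had 0.0673 and 0.0615 in NFRI 3155 at 39°C. In the opposite direction *FRE7*, a copper-regulated reductase, rose at least 2.53-fold in NFRI 3155, to 0.0647 and 0.139, and was above background on 0 of 3 S288C arrays at 39°C. *PCH2*, a meiotic checkpoint gene, rose at least 2.59-fold in NFRI 3155, to 0.0798 and 0.119, and was above background on 0 of 3 S288C arrays at 30°C and 2 of 3 at 39°C. The calls of *SPG4* and *PCH2* were lost without 2 of the 10 arrays in turn, for *SPG4* either NFRI 3155 30°C array, and for *PCH2* NFRI 3155 30°C replicate 2 and NFRI 3155 39°C replicate 2.

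The study picked 3 candidate genes from these strains, so their direction is no independent evidence. It also measured them by real-time RT-PCR in the same 3 strains. There the ratio of *FMP21* increased with thermotolerance, while those of *YER034W* and *PRM5* were reported to have no relation to it. The values below are from the arrays only. *YER034W*, of unknown function, had relative signals of 0.382, 0.393 and 0.407 at 30°C and 0.710, 0.596 and 0.596 at 39°C in S288C, and 0.186 and 0.185 and then 0.0997 and 0.0835 in NFRI 3155. It rose 1.61-fold in S288C and fell to 0.491-fold in NFRI 3155 (difference 1.71 ± 0.28, adjusted p = 0.00219), and rose 3.10-fold in NFRI 3236. *FMP21*, listed as *SDH8* in current annotation, an assembly factor of succinate dehydrogenase, had 2.37, 1.98 and 2.05 and then 5.12, 4.87 and 4.41 in S288C, and 2.24 and 2.39 and then 3.26 and 2.99 in NFRI 3155. Its rise of 2.25-fold in S288C was called and the fold of 1.35 in NFRI 3155 was not, and the difference of 0.74 ± 0.29 did not pass the test (adjusted p = 0.0937). *PRM5*, a cell wall integrity gene, rose 26.8-fold in S288C against 15.1-fold in NFRI 3155, and the difference of 0.83 ± 0.49 did not pass the test either (adjusted p = 0.265). Its levels lay far apart between the strains, with 11.5, 8.32 and 6.42 in S288C against 0.494 and 0.597 in NFRI 3155 at 39°C.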

How the data were processed

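RNA of S288C, NFRI 3155 and NFRI 3236 was measured at 30°C and after 30 min at 39°C on 14 arrays. The authors scanned the arrays with GCOS at its default settings, whose scaling is not given in the sources used here, and deposited 1 linear signal intensity per probe set. The 10928 probe sets comprise 5498 for *S. cerevisiae* genes, 1746 for *S. pombe* and 3470 without a name here. For 47 genes with several probe sets the probe set with the highest mean log2 signal was used. Deposited intensities below 1 were set to 1, taken to log2 and reduced by the array's 75th percentile. Genes above the array's 20th percentile on every array of at least 1 group were tested. One limma model (limma 3.58.1, R 4.3.3) held 6 group means, with 8 residual and 5.10 prior degrees of freedom, two-sided moderated tests and Benjamini-Hochberg adjustment over 5443 genes. The fit was tested on simulated data.

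The members and lists were chosen with earlier results of these data known. Named genes are the 4 with the largest differences in each class among genes above background on all 10 arrays, the leading called members of each list among genes above background on every array of at least 1 group, the 4 largest fitted differences in each direction among genes with no array above background in 1 group and all arrays in another, and the 3 candidates. Other list members named as examples (for instance *SIS1*, *ADE4*, *RPL3* and *PHO84*) were chosen after their values were seen. Alternatives covered scaling, filters, the arrays fitted, a replicate block, the test, thresholds and each array left out. P-values measure the spread between arrays of independently grown cells as the methods describe them, and the number of arrays limits the precision. Promoter sequences were not analysed here.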

Additional observations from a re-analysis of the deposited data

Results flagged for a closer look

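For 147 of the named genes the response to 39°C differed between S288C and NFRI 3155 by a test of the difference itself, the limma contrast of both responses at an adjusted p under 0.05. The values that follow are the log2 response of S288C minus that of NFRI 3155, by what each strain did, first for 133 genes with at least 1 array above background in each of the 4 groups. With 2 or 3 arrays per group no array was tested as an outlier.

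Where S288C fell and NFRI 3155 fell, with a higher response in S288C, the difference was 3.73 for *YDL241W*, 2.296 for *YVH1*, 2.08 for *NRG2*, 2.05 for *TOS6*, 1.57 for *CIN5*, 1.51 for *TIF4631* and 1.46 for *TIF11*.

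Where S288C was not called and NFRI 3155 fell, with a higher response in S288C, the difference was 5.17 for *TIR4*, 3.37 for *MAE1*, 3.08 for *ADE1*, 2.87 for *COS111*, 2.55 for *ADE13*, 2.51 for *ECM16*, 2.197 for *EBP2*, 1.92 for *SER2* and 1.84 for *CYB5*. For 9 more of these genes it was 1.796 for *DBP10*, 1.61 for *BAT2*, 1.58 for *GSY1*, 1.42 for *LYS1*, 1.38 for *RPA14*, 1.35 for *LYP1*, 1.303 for *ERG28*, 1.08 for *HHT2* and 1.01 for *DPS1*.

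Where S288C was not called and NFRI 3155 was not called, with a higher response in S288C, the difference was 1.56 for *PEX21*, 1.52 for *DDC1*, 1.41 for *SEC9* and 1.32 for *ABP140*.

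Where S288C rose and NFRI 3155 fell, with a higher response in S288C, the difference was 4.099 for *FIT2*, 3.97 for *DAL1*, 3.25 for *HUG1*, 2.89 for *PYC1*, 2.82 for *MFA2*, 2.61 for *TIF4632*, 2.56 for *ADE2*, 2.27 for *CAR2* and 1.88 for *QCR6*. For 2 more of these genes it was 1.71 for *YER034W* and 1.27 for *ERG20*.

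Where S288C rose and NFRI 3155 was not called, with a higher response in S288C, the difference was 3.94 for *CYC7*, 3.66 for *BTN2*, 3.15 for *MNN4*, 3.13 for *HOP1*, 2.71 for *YPS3*, 2.33 for *SSA1*, 2.03 for *DAL4*, 1.72 for *GPA1* and 1.49 for *MRP20*. For 6 more of these genes it was 1.45 for *ALD4*, 1.43 for *PHO2*, 1.35 for *MUP3*, 1.28 for *GPD1*, 1.01 for *LSC2* and 0.99 for *OYE2*.

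Where S288C rose and NFRI 3155 rose, with a higher response in S288C, the difference was 3.46 for *HSP42*, 2.76 for *RTC3*, 2.74 for *SRL3*, 2.54 for *ULI1*, 2.52 for *HXK1*, 2.503 for *HXT5*, 2.46 for *CTT1*, 2.36 for *PGM2* and 2.08 for *STF1*. For 9 more of these genes it was 2.01 for *ATG8*, 1.71 for *SOL4*, 1.64 for *UBI4*, 1.64 for *HSP78*, 1.59 for *GPM2*, 1.45 for *JEM1*, 1.31 for *HSP31*, 1.02 for *CIT1* and 0.94 for *RPT1*.

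Where S288C fell and NFRI 3155 fell, with a lower response in S288C, the difference was -2.43 for *RPL2B*, -2.22 for *RPL4B*, -2.21 for *RPS9B* and -2.11 for *RPL26B*.

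Where S288C fell and NFRI 3155 was not called, with a lower response in S288C, the difference was -4.51 for *YHB1*, -3.44 for *RPL41A*, -2.64 for *YLR264C-A*, -2.63 for *RPL22B*, -2.39 for *NEJ1*, -2.31 for *MMP1*, -2.304 for *OLE1*, -2.299 for *BIO5* and -1.99 for *FIG2*. For 9 more of these genes it was -1.98 for *ALP1*, -1.79 for *GUT1*, -1.77 for *TAT1*, -1.75 for *FAA3*, -1.72 for *GAL1*, -1.67 for *FLR1*, -1.59 for *COS9*, -1.56 for *WSC2* and -1.19 for *RSM26*. It was -1.15 for *ECM10*.

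Where S288C fell and NFRI 3155 rose, with a lower response in S288C, the difference was -3.66 for *PHO5*, -3.601 for *APT2*, -3.24 for *QDR2*, -2.84 for *MET17*, -2.06 for *FIT1*, -2.05 for *CHO2*, -1.79 for *AGA1* and -1.59 for *ARG4*.

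Where S288C was not called and NFRI 3155 was not called, with a lower response in S288C, the difference was -2.102 for *GTT2*, -1.28 for *IBA57*, -0.95 for *NTE1*, -0.92 for *ATG5* and -0.91 for *UGO1*.

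Where S288C was not called and NFRI 3155 rose, with a lower response in S288C, the difference was -2.84 for *ATG41*, -2.73 for *YER138W-A*, -2.52 for *MET3*, -2.47 for *YJL077W-B*, -2.18 for *UGA4*, -2.17 for *ACS1*, -1.95 for *BIO3*, -1.93 for *PXA1* and -1.76 for *CAT2*. For 2 more of these genes it was -1.46 for *REC102* and -1.36 for *NTH2*.

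Where S288C rose and NFRI 3155 rose, with a lower response in S288C, the difference was -3.92 for *TKL2*, -3.08 for *YNL195C*, -2.78 for *NDE2*, -2.55 for *YGR201C*, -2.39 for *CBP4*, -2.36 for *RDL1*, -2.12 for *GRE1*, -2.05 for *MOH1* and -1.87 for *RTN2*. For 4 more of these genes it was -1.61 for *HXT9*, -1.41 for *HSP30*, -1.37 for *SDH6* and -1.26 for *USV1*.

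The other 14 genes had no array above background in at least 1 of the 4 groups. Their fitted difference of responses, in alphabetical order, is not a measured size and gives no order among them, and the fitted rise or fall of a strain below background in both groups (NFRI 3155 for *COS12* and *IMD2*) is no measured change. The fitted value was -1.55 for *COS12*, 4.21 for *DAN1*, -4.46 for *FRE7*, 1.93 for *GAL10*, -1.51 for *IMD2*, 4.09 for *LEE1* and -3.25 for *MF(ALPHA)1*. It was -3.32 for *OYE3*, -3.99 for *PCH2*, -4.71 for *PHO3*, -4.24 for *PHO89*, -1.92 for *POX1*, 4.06 for *SMA1* and 3.84 for *SPG4*.

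Of the probe sets with no name here, which no comparison used, 192 were above background on all 10 arrays.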

How the results depend on the processing

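The difference of responses gave 483 genes higher and 416 lower in S288C. Without the 75th percentile shift, which moved the median of all genes from 0.06 to 0.44, it gave 140 and 32, and at an adjusted p under 0.01 157 and 137. Leaving out each array in turn gave 203 to 595 higher and 181 to 445 lower. Quantile normalization gave 494 and 494. The response of S288C gave 774 rises and 908 falls with an absolute log2 value above 1 and 449 falls without the shift. The response of NFRI 3155 gave 591 rises and 503 falls without the shift, 640 rises at an adjusted p under 0.01 and 630 with a log2 value above 1, and 635 to 1096 rises with each array left out. The methods' t-test gave 786 rises and 999 falls there at its unadjusted threshold and 0 and 0 after Benjamini-Hochberg, with 2 arrays against 2. The strain difference at 39°C gave 217 and 1782 without the shift, 832 and 770 at an adjusted p under 0.01, and 782 and 665 with a log2 value above 1. That at 30°C gave 118 and 3159, 433 and 494, and 464 and 434 under the same alternatives, and 412 to 874 higher and 428 to 1063 lower with each array left out. The lowest of these ranges came without NFRI 3155 30°C replicate 2, apart from the 635, which came without NFRI 3155 30°C replicate 1. The cause was not tested. None of the named genes changed the sign of its difference in the alternatives that tested it. The split of rises and falls did turn without the shift, as the counts show, and the median difference of 12 of 42 gene lists went from negative to positive, for instance from -0.27 to 0.11 for mitochondrial ribosomal proteins and from -0.26 to 0.13 for glycolysis and ethanol fermentation. The median changed sign for 5 lists with quantile normalization, 3 with 16 added to each signal and 1 with a median shift.

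The deviations of arrays with the same number from their group means correlated at r = -0.00872 in NFRI 3155 and 0.0209 to 0.0517 in S288C. For S288C arrays with different numbers r was -0.0531 to 0.0146. With 2 arrays per group the NFRI 3155 values can differ only in sign. Whether the numbers pair the arrays cannot be decided from these values. With the replicate block 323 genes were higher and 280 lower. Of the 149 named genes, 28 lost their call with the block, 80 without the shift, 8 with quantile normalization, and 13 to 49 with an array left out, and 88 of the 147 called kept it whichever array was left out. Arrays limit the precision by their number, and 76 called genes were not above background on all 10 arrays.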

Other observations

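Of 47 genes with several probe sets, 21 had at least 1 probe set called for the difference of responses and 7 had all of them called. The probe sets of *YNL034W* gave log2 differences from -1.03 to 2.79, of which 1 was called.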
